A study of Mus musculus with 18 samples.

Results

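The 10 liver zonation genes described here were followed across 18 ChIP-seq peak lists of mouse liver. Of the 10, 9 are expressed around the central vein and mostly respond to Wnt signalling (Glul, Cyp1a2, Cyp2e1, Axin2, Lgr5, Rnf43, Tbx3, Oat and Slc1a2), and Cyp2f2 is the periportal contrast. They were chosen by name from 21887 protein-coding genes of the RefSeq annotation. Each gene was measured over its annotated span (build mm10) with 10 kb on each side, and Oat also with 100 kb on each side. All mice were C57BL/6, 8 weeks old and homozygous for a floxed Ctcf allele (CTCF fl/fl). The WT libraries came from mice without the Alb-Cre transgene (Albcre-) and still carried the floxed allele, and the KO libraries came from mice with it (Albcre+). Alb-Cre is driven by the albumin promoter, so it acts in hepatocytes, and liver cells in which that promoter is silent keep their CTCF. H3K27ac had 3 WT and 3 KO libraries, PPARg and CTCF had 2 and 2 each, and H3K4me3 and H3K27me3 had 1 and 1. The files hold peaks, not reads, so depth is unknown, and the measure is the number of base pairs that peaks cover in a gene's window.

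Hepatocytes divide their work along the axis from portal vein to central vein. Wnt ligands and R-spondins from endothelial cells of the central vein hold back the destruction of beta-catenin in the hepatocytes next to them, and beta-catenin with TCF/LEF factors then switches on the pericentral programme of glutamine synthesis, drug oxidation and Wnt feedback. Periportal hepatocytes make glucose and urea instead. CTCF is the zinc-finger protein that shapes chromatin loops and insulates genes, PPARg is a nuclear receptor that drives lipid storage genes, H3K27ac marks active promoters and enhancers, H3K4me3 marks active promoters, and H3K27me3 marks genes held silent by Polycomb. In whole liver, fewer cells that carry a mark and less of the mark per cell cannot be told apart. This bears on each value below, because zonation genes are active in only part of the lobule.

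The libraries differed in total peak cover. The KO to WT ratio of mean covered length was 1.16 for H3K27ac, 2.63 for PPARg, 0.756 for CTCF, 0.879 for H3K4me3 and 1.56 for H3K27me3. Among the H3K27ac libraries KO 4 stood apart, with 126 Mb against 78.2 to 91.5 Mb in the other 5. PPARg WT 4 was made with a ligation kit and listed peaks down to a −log10 q near 1.3, whereas the other 3 PPARg libraries were made by tagmentation from fasted males and listed down to about 3. The growth protocol given for the histone libraries and PPARg WT 4 describes neural stem cells, although their tissue label is liver. The 5 hepatocyte markers all carried H3K27ac, with summed cover of 271 to 304 percentage points in WT and 259 to 289 in KO, while 4 of 6 neural stem cell markers (Sox2, Sox1, Olig2 and Pax6) were at 0 in all 6 H3K27ac libraries. The other 2, Nes and Fabp7, carried it, with sums of 29.8 to 37.1 in WT and 17.96 to 52.9 in KO. Stellate cell markers carried H3K27ac at 6 of 6 genes, with sums of 17.6 to 39.2 in WT and 43.4 to 91.9 in KO, so the groups did not overlap. Sums for endothelial markers were 130 to 160 in WT and 121 to 224 in KO, those for Kupffer cell markers 0 to 19.2 and 1.95 to 24.4 (5 of 6 genes, Marco at 0), and those for lymphocyte markers 17.3 to 18.9 and 12.5 to 43.9 (3 of 5 genes). Cholangiocyte markers had sums of 8.39 to 9.61 in WT and 12.8 to 19.1 in KO from 2 of 5 genes, with Krt19, Krt7 and Epcam at 0. These sums did not overlap either, and 1 of the 2 genes had all KO libraries above all WT libraries. The part of these other cells in the results below was not tested.

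Promoters of 5 of the genes are printed because they hold a match to a motif of the Wnt pathway or of nuclear receptors, and because peaks over them differ by gene. Each runs from 250 bases before to 50 bases after the RefSeq start site (GRCm38.p6, the assembly of mm10), 5′ to 3′ on the gene's strand, with motif matches in capitals. They lie at chr1:153899679-153899978 on the plus strand for Glul, chr9:57683606-57683905 on the minus strand for Cyp1a2, chr7:140763569-140763868 on the plus strand for Cyp2e1, chr2:102706188-102706487 on the plus strand for Slc1a2 and chr7:27119705-27120004 on the plus strand for Cyp2f2.
Glul: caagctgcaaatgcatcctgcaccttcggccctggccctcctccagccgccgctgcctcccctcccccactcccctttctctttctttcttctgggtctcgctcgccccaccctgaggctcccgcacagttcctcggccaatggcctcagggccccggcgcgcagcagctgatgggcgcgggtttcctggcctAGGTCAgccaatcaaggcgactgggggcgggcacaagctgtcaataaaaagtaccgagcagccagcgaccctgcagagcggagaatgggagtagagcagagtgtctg
Cyp1a2: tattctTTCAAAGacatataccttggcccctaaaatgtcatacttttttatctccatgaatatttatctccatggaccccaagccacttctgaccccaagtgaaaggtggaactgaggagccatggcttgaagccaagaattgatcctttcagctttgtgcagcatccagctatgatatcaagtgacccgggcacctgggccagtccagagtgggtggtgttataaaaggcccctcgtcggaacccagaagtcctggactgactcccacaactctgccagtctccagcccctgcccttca
Cyp2e1: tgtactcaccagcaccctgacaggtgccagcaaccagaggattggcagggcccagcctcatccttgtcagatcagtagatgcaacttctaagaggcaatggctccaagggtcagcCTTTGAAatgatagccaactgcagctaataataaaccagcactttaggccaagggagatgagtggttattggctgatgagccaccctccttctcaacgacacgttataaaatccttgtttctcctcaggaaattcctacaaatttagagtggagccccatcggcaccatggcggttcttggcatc
Slc1a2: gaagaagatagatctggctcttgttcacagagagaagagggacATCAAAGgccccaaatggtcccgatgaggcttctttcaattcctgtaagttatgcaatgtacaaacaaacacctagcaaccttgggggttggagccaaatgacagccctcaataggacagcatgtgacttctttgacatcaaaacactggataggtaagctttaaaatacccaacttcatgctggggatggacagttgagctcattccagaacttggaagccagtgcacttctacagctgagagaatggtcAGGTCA
Cyp2f2: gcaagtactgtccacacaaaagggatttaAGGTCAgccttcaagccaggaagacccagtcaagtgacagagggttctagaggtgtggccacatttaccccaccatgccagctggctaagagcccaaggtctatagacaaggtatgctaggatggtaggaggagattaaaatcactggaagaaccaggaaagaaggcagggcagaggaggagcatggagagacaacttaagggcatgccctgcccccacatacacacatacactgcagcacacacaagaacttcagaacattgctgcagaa

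The motifs were searched on both strands. TCF/LEF was spelled CTTTG followed by AA, AT, TA or TT. The nuclear receptor half-site was AGGTCA, and the direct repeat of the kind PPAR:RXR binds was 2 half-sites on the same strand with 1 base between, so each direct repeat also counts as a half-site. A TCF/LEF match stood in the promoters of Cyp1a2, Cyp2e1 and Slc1a2, on the minus strand in Cyp1a2 and Slc1a2 and on the plus strand in Cyp2e1. The half-site stood in those of Glul, Slc1a2 and Cyp2f2. Of 32851 promoters of this length, 16.9% held a TCF/LEF match, 16.3% the half-site and 0.0396% the direct repeat. The direct repeat was in none of the members' promoters, and those of Axin2, Rnf43 (which has 2) and Oat held no match. No promoter sequence was used for Lgr5 and Tbx3. The start site used for Slc1a2, chr2:102706438, lies inside its annotated span, which begins at chr2:102658239.

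H3K27ac covered very different shares of the 10 windows, and its level did not change past the test at any of them. In WT the order ran from Cyp2e1 (57.4% ± 1.73 of the window, SD, n = 3) through Cyp1a2 (49.6% ± 5.76), Cyp2f2 (43.5% ± 3.17), Glul (27.3% ± 5.44), Rnf43 (25.6% ± 2.81), Tbx3 (24.0% ± 2.21), Oat (19.2% ± 3.39), Axin2 (10.5% ± 0.754) and Slc1a2 (6.85% ± 3.51) to Lgr5 (1.53% ± 0.525). Glul and Rnf43, and Rnf43 and Tbx3, differed by less than the SD of either, and the WT libraries of Cyp1a2 and Cyp2f2 and of Tbx3 and Oat overlapped, while the other neighbours in this order did not. Cyp2e1 ranked above 98.9% of all genes and Lgr5 above 41.5%. Long genes have longer windows, so the order in base pairs differs. The WT mean of Slc1a2 (10444 bp) was above those of Glul (8147 bp) and Tbx3 (8192 bp). In the limma fit 0 of 15512 genes passed an adjusted p of 0.05 in either direction (0.0% called higher and 0.0% lower). At an unadjusted p of 0.05, 5.32% of genes were higher and 0.973% lower in KO. KO means were above WT at 3 members and below at 7, with a median difference of −0.66 percentage points, against +0.87 over all genes tested, of which 77.1% were higher. All KO libraries lay below all WT libraries at 1 member, Tbx3, as at 1.41% of genes tested, and all lay above at none, against 10.7% of genes. Without KO 4 no gene was called either, the difference at Tbx3 was −6.03, and that at Axin2 turned from +0.82 to −0.72 percentage points.

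**Figure D1:**
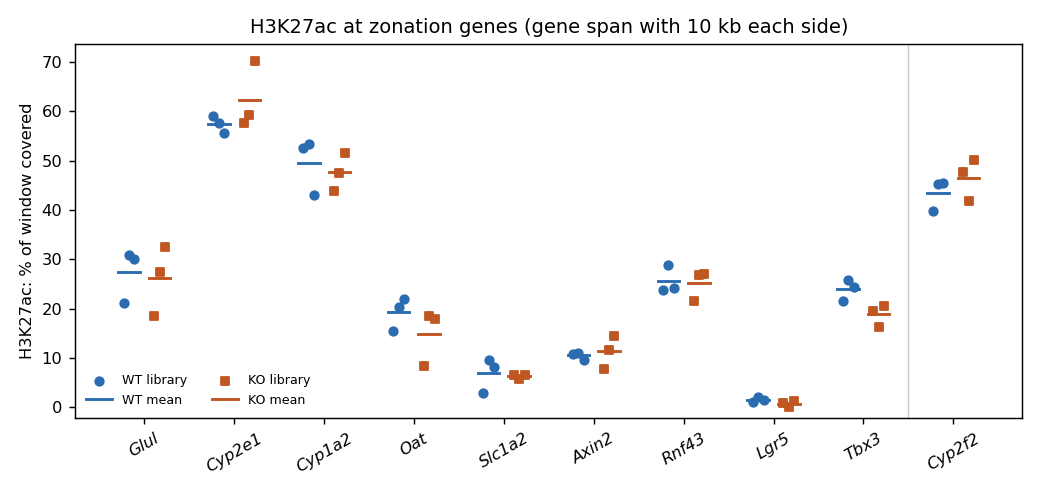
H3K27ac cover of each gene's window, in percent of the window, by library; circles are the 3 WT and squares the 3 KO libraries, and bars are their means. Cyp2e1 is highest (57.4% in WT), Lgr5 lowest (1.53%), and Tbx3 is the gene whose KO libraries all lie below its WT libraries.

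PPARg cover was wider in both KO libraries than in both WT libraries at 8 of the 10 genes, as at 72.3% of the 10134 genes tested, and it was absent in KO at Tbx3. The test was passed by Cyp1a2, Cyp2e1 and Cyp2f2, all higher in KO, that is 3 of 10 members against 34.2% of all genes called higher (limma, adjusted p under 0.05). No member passed in the lower direction, in which 0.148% of genes did. The members' median difference was +2.15 percentage points against +1.30 over all genes, 94.2% of which were higher in KO. When each library was divided by its total covered length, no gene was called, and none was called without WT 2 or without WT 4, which leaves 1 WT library. Without WT 4, the library made with another kit, the differences were 11.6 percentage points at Cyp1a2, 17.7 at Cyp2e1 and 9.57 at Cyp2f2, each with a limma adjusted p of 0.129. After division by total cover they were 4.51, 3.72 and 3.27.

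**Figure D2:**
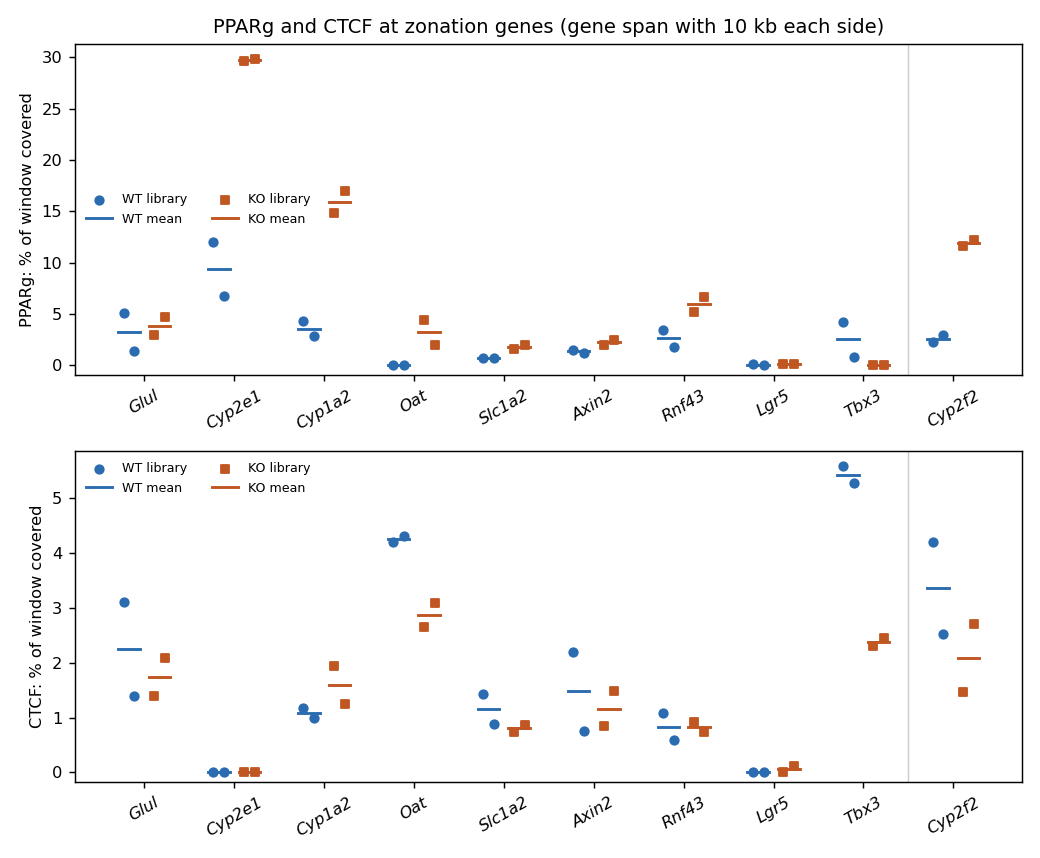
PPARg (top) and CTCF (bottom) cover of each window, in percent, by library; circles are the 2 WT and squares the 2 KO libraries, and bars are means. PPARg is far wider in KO at Cyp2e1 (29.7% against 9.41%), Cyp1a2 and Cyp2f2, and CTCF lies lower in KO at Tbx3, Oat and Slc1a2 without overlap.

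CTCF, the protein whose gene was targeted, had 24566 and 27585 peaks in the WT libraries and 18597 and 20323 in the KO libraries. At least 1 KO library had a peak at 9 of the 10 windows, and Cyp2e1 had none in any of the 4 libraries. Lgr5, counted among the 9, had no peak in either WT library and a single peak of 195 bp in 1 KO library. Both KO libraries lay below both WT libraries at Tbx3, Oat and Slc1a2, 3 of 9 covered members against 37.3% of all genes tested, and above them at Cyp1a2 alone (background 3.83%). In the limma fit 0 of 13306 genes passed the adjusted threshold (0.0% called higher and 0.0% lower), while 9.68% were lower and 0.549% higher at an unadjusted p of 0.05. The members' median difference was −0.35 percentage points and that of all genes −0.37. Of 16 CTCF sites in the 10 windows, 10 were called in all 4 libraries and 3 in both WT and neither KO, of which 2 lay at Tbx3 and 1 at Cyp2f2. Over the genome 53.1% of sites were called in all 4 libraries and 9.87% were WT-only. None of the 16 was called in both KO and neither WT, against 0.167% of all sites.

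H3K4me3 covered less in the KO library than in the WT library at all 9 members with a peak, and 69.6% of all 13800 covered genes were also lower by some amount. There was 1 library per genotype, so no test and no replicate check exist. The covered length was at least 1.5 times lower at 6 of the 9 (Cyp1a2, Cyp2e1, Lgr5, Tbx3, Oat and Cyp2f2) against 10.5% of genes, and none was that much higher, against 9.14%. The median KO to WT ratio over the 7 members covered in both libraries was 0.512, against 0.892 over the 12942 genes covered in both. Of 20 H3K4me3 regions in the windows 10 were called in both libraries, 10 in WT alone and none in KO alone, while 69.8%, 15.7% and 14.5% of all H3K4me3 regions fell in these classes. The same direction appeared at 14 of 15 other pericentral genes, at 13 of 15 other periportal genes and at 5 of 5 hepatocyte markers, of which 8, 7 and 3 were at least 1.5 times lower. The stellate markers with a peak (4 of 6) were all higher in KO. Endothelial markers were lower at 3 genes and higher at 3, and cholangiocyte markers lower at 1 and higher at 1. The 1 lymphocyte marker and the 1 neural stem cell marker with a peak were lower, and no Kupffer cell marker had a peak. The ratio was low at hepatocyte genes of either zone, with medians of 0.665 over 12 other pericentral genes covered in both libraries, 0.669 over 15 periportal genes and 0.666 over the 5 hepatocyte markers.

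**Figure D3:**
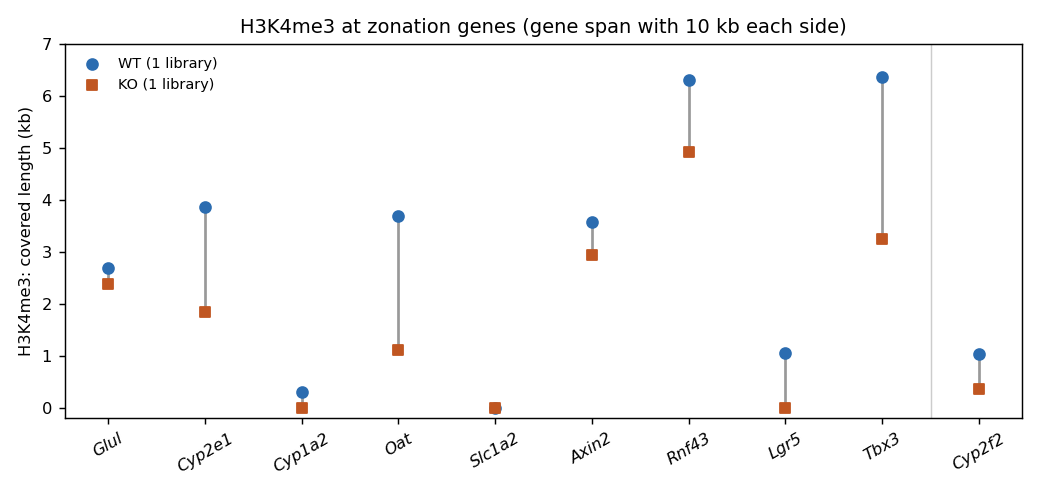
H3K4me3 covered length in kb at each gene, in the WT library (circle) and the KO library (square), joined by a line. All 9 genes with a peak lie lower in KO, with the longest lines at Tbx3, Oat and Cyp2e1; Slc1a2 is at 0 in both.

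H3K27me3, again with 1 library per genotype, was present at 3 of the 10 genes, Tbx3, Oat and Slc1a2. It was at least 1.5 times higher in KO at Tbx3 and Oat, as at 55.1% of the 4157 genes with any, and at least 1.5 times lower at Slc1a2, as at 24.9%. Any decrease was seen at 32.7% of genes and a complete one, which no member had, at 15.6%. The median ratio over genes covered in both libraries was 1.58.

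Glul (chr1:153899929-153909723) encodes glutamine synthetase, which fixes the last ammonia before blood leaves the lobule and is made by the rim of hepatocytes around the central vein. H3K27ac covered 6278, 9180 and 8984 bp in the WT libraries, against 5509, 8186 and 9669 bp in the KO libraries, and the groups overlapped widely (difference −1.21 percentage points, SE 4.52, limma adjusted p = 0.958). PPARg covered 1518 and 407 bp in the WT libraries, against 889 and 1392 bp in the KO libraries, again with overlap. A single PPARg site was called in all 4 libraries, 8690 bp beyond the gene at chr1:153918413-153919301, where the authors' fold over background was 4.64 and 5.27 in the WT lists and 30.7 and 18.99 in the KO lists. These folds are each list's own, and they do not measure a change between lists. The promoter shown above carried no PPARg peak in any library, and H3K27ac covered all 300 of its bases in all 6. CTCF covered 927 and 413 bp in the WT libraries, against 413 and 620 bp in the KO libraries, all from a single site at chr1:153894350-153895284, which lies nearer to Teddm1a than to Glul. H3K4me3 covered 2690 bp in WT and 2389 bp in KO, the smallest relative drop of the 9 genes.

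Oat (chr7:132557475-132576398) encodes ornithine aminotransferase, which feeds ornithine into glutamate and is a pericentral Wnt target. No PPARg peak stood in its 10 kb window in either WT library, whereas KO 7 had 1735 bp and KO 8 had 778 bp (adjusted p = 0.0889, limma). The difference was +3.23 percentage points. On the log2 scale it passed the limma threshold (adjusted p = 0.0188), as with the stricter q (0.0269) and lists of equal length (0.0403). It did not pass after division by total cover, with limma's trend or with a window of 5 kb. Without KO 7 the difference was +2.00 percentage points and without KO 8 it was +4.46. With 1 KO library left, the spread rests on the WT libraries, both at 0 bp. The site shared by both KO libraries lay 1445 bp outside the gene on the promoter side, at chr7:132577843-132578620, with folds of 7.44 and 6.36. CTCF covered 1635 and 1678 bp in the WT libraries, against 1031 and 1202 bp in the KO libraries. Those groups did not overlap (limma adjusted p = 0.435). Both CTCF sites in the window were called in all 4 libraries, and it was the width of their peaks that was smaller. H3K27ac covered 6002, 7904 and 8541 bp in the WT libraries, against 3246, 7202 and 6945 bp in the KO libraries, with overlap, and KO 2 was the lowest. H3K4me3 covered 3689 bp in the WT library and 1109 bp in the KO library. H3K27me3 was nearly absent, at 141 and 225 bp.

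Within 100 kb of Oat, a region chosen with an H3K27ac difference there already known, H3K27ac covered 30500, 30141 and 27958 bp in the WT libraries, against 22146, 25302 and 34155 bp in the KO libraries, which overlap. A single H3K27ac region was called in all 3 KO and no WT library, at chr7:132468049-132473330, 84145 bp from the gene on the side of its 3′ end. The folds there were low, at 2.75, 3.02 and 2.70. This region held a CTCF site, chr7:132471405-132471743, that both WT libraries called (folds 4.98 and 4.68) and neither KO library did. Over the genome, 6 of 620 KO-only H3K27ac regions (0.968%) held such a WT-only CTCF site, against 483 of 22736 regions called in all 6 libraries (2.12%). The pairing seen at Oat was not common among KO-only regions. CTCF sites called in all 4 libraries were also held by a smaller share of KO-only regions (4.19%) than of regions called in all 6 libraries (13.0%). Region widths were not matched in these shares. On the other side of the gene the PPARg and H3K27ac peaks of the wide window mostly lay within Lhpp, a phosphatase gene, and their highest PPARg folds were 18.3 and 14.2 in the WT lists and 20.8 and 25.2 in the KO lists.

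**Figure D4:**
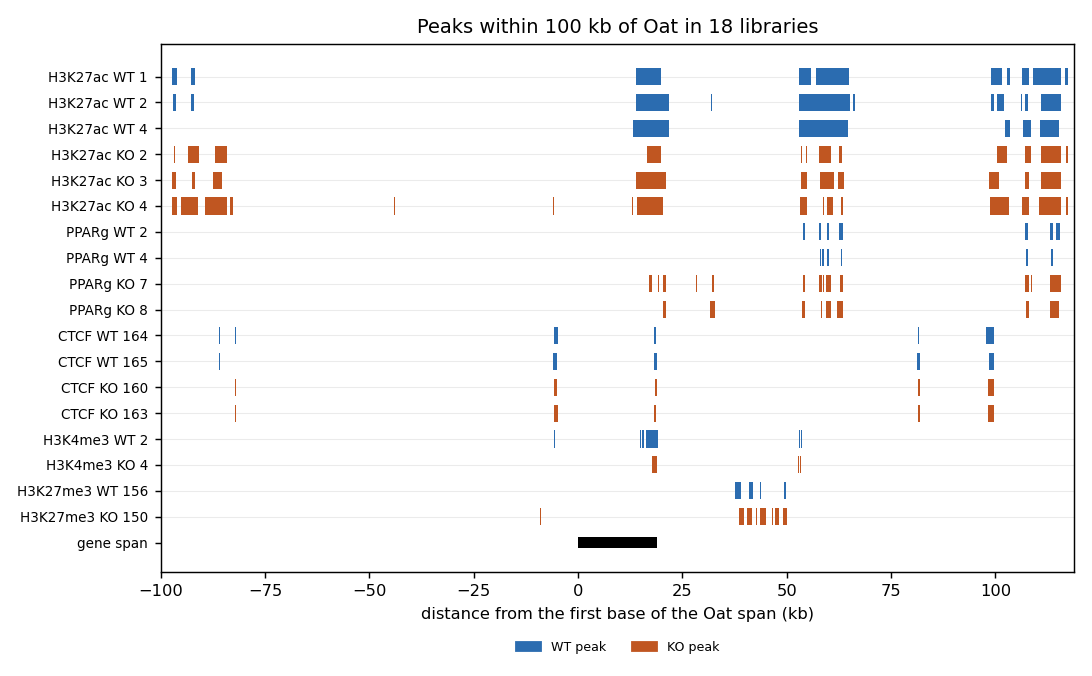
Peaks within 100 kb of Oat in each of the 18 libraries, by distance in kb from the first base of the gene span (black bar), WT in blue and KO in orange. The H3K27ac peaks near −85 kb appear in KO 2, KO 3 and KO 4 and in no WT library, and the CTCF peak near −86 kb in the 2 WT libraries alone.

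Slc1a2 (chr2:102658239-102790784) encodes a glutamate transporter that pericentral hepatocytes use beside glutamine synthetase. Its window had the strongest PPARg site of all 10 genes, inside the gene at chr2:102744156-102746598, with folds of 27.1 and 21.2 in the WT lists and 81.2 and 71.9 in the KO lists. That site ranked above 97.2% to 99.2% of the peaks of its own list in each library. PPARg covered 1155 and 1100 bp in the WT libraries, against 2443 and 3096 bp in the KO libraries, without overlap (difference +1.08 percentage points, limma adjusted p = 0.0547). It passed on the log2 scale (limma adjusted p = 0.0402). The difference was +1.29 percentage points without KO 7 and +0.86 without KO 8, with 1 KO library left in each fit. The direction turned, to −0.11 percentage points, when libraries were divided by their total cover. A CTCF site called in all 4 libraries, chr2:102743197-102744427, overlapped the edge of this PPARg site. CTCF covered 2175 and 1348 bp in the WT libraries, against 1135 and 1316 bp in the KO libraries. The promoter shown above lies inside the gene span, and no promoter at the first base of that span was examined. It had no PPARg, CTCF or H3K4me3 peak and carried H3K27ac in 2 WT and no KO libraries, over at most 121 bases. H3K27ac over the whole window was 4384, 14554 and 12393 bp in the WT libraries, against 9945, 8831 and 10059 bp in the KO libraries, and WT 1 was the lowest of the 6. Slc1a2 also had H3K27me3, 983 bp in WT and 540 bp in KO.

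Cyp2e1 (chr7:140763819-140774990), the ethanol- and paracetamol-oxidising cytochrome P450, had the widest PPARg cover of the 10. It measured 3754 and 2114 bp in the WT libraries, against 9228 and 9290 bp in the KO libraries, and both KO libraries stood far above both WT libraries. The difference was +20.3 percentage points (SE 2.09, limma adjusted p = 0.0185), a ratio of 3.16. The site with the highest fold in the KO lists lay upstream at chr7:140758227-140761598, with folds of 13.8 and 10.6 in the WT lists and 62.7 and 44.9 in the KO lists. A site farther upstream, chr7:140753768-140757892, had a higher fold in WT 2, at 14.9. PPARg peaks also covered 225 to 300 bases of the promoter printed above in all 4 libraries, which 3.04% of promoters shared. H3K27ac covered 18401, 17987 and 17330 bp in the WT libraries, against 17966, 18503 and 21872 bp in the KO libraries. The highest of these was KO 4, the library with the widest list. H3K4me3 measured 3857 bp in WT and 1835 bp in KO. CTCF, with 0 bp in all 4 libraries, could not be compared here.

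Cyp1a2 (chr9:57676937-57683655), the caffeine-oxidising cytochrome P450 that also answers to the Ah receptor, had PPARg cover of 1145 and 768 bp in the WT libraries, against 3963 and 4528 bp in the KO libraries. The groups were widely apart (+12.3 percentage points, SE 1.02, limma adjusted p = 0.0156, a ratio of 4.44). A PPARg peak covered all 300 bases of its promoter in all 4 libraries, with folds of 5.01 and 7.06 in the WT lists and 28.1 and 16.8 in the KO lists over chr9:57683211-57684441. The window also holds its neighbour Cyp1a1, whose edge the KO-only PPARg site of this window overlapped. A PPARg site called in all 4 libraries, chr9:57684953-57686920, lay 1298 bp outside Cyp1a2 and 1008 bp from Cyp1a1. For Cyp1a2 and Cyp2e1 the PPARg call was also lost without KO 7, without KO 8 and with lists of equal length, for Cyp1a2 at adjusted p of 0.0532, 0.0620 and 0.0584 and for Cyp2e1 at 0.118, 0.119 and 0.0513. The differences were then 13.4, 11.3 and 6.84 percentage points at Cyp1a2 and 20.4, 20.2 and 15.5 at Cyp2e1. H3K27ac covered 14038, 14258 and 11490 bp in the WT libraries, against 11734, 12712 and 13786 bp in the KO libraries, with overlap. CTCF covered 314 and 266 bp in the WT libraries, against 519 and 332 bp in the KO libraries, from a single site. That site, chr9:57687989-57688507, lay 4334 bp outside Cyp1a2 and overlapped Cyp1a1. This was the member window at which both KO values were higher. H3K4me3 was thin, with 296 bp in WT and none in KO, and none of it lay on the promoter.

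Axin2 (chr11:108917828-108950783), a scaffold of the destruction complex and a general Wnt feedback target, passed no test. H3K27ac covered 5723, 5849 and 5103 bp in the WT libraries, against 4156, 6196 and 7629 bp in the KO libraries, so that KO libraries lay on both sides of the WT range. PPARg covered 800 and 668 bp in the WT libraries, against 1066 and 1307 bp in the KO libraries (limma adjusted p = 0.0976), from a pair of sites that all 4 libraries called. CTCF covered 1161 and 404 bp in the WT libraries, against 446 and 782 bp in the KO libraries, from 1 site inside the gene, chr11:108924716-108925927. H3K4me3 measured 3578 bp in WT and 2948 bp in KO.

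Rnf43 (chr11:87663087-87735539), the ubiquitin ligase that removes Frizzled receptors from the cell surface and so damps Wnt signalling, had the longest H3K27ac cover in base pairs. It measured 21902, 26630 and 22404 bp in the WT libraries, against 19938, 24889 and 24978 bp in the KO libraries, with means that differed by −0.41 percentage points (limma adjusted p = 0.971). PPARg covered 3168 and 1689 bp in the WT libraries, against 4846 and 6203 bp in the KO libraries, without overlap (adjusted p = 0.0677, limma), and the difference turned to −0.55 percentage points after division by total cover. The strongest of its PPARg sites lay inside the gene at chr11:87700290-87703372, just past the second RefSeq start site, with folds of 19.1 and 10.6 in the WT lists and 35.6 and 29.2 in the KO lists. CTCF covered 1000 and 539 bp in the WT libraries, against 846 and 675 bp in the KO libraries, and its single site ended 115 bp before the gene at chr11:87661867-87662972. H3K4me3 measured 6308 bp in WT and 4918 bp in KO. The window also holds Hsf5 and Supt4a. Both H3K4me3 values include a region, chr11:87736530-87738496, that lay 991 bp outside Rnf43 and overlapped Supt4a.

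Lgr5 (chr10:115450314-115587780), the R-spondin receptor that marks the most Wnt-active hepatocytes, was nearly bare. H3K27ac covered 1572, 3224 and 2416 bp in the WT libraries, against 1460, 0 and 2047 bp in the KO libraries, and KO 3 had no peak. No Lgr5 region of H3K27ac was called in all 6 libraries. H3K4me3 covered 1052 bp in WT and none in KO, as at 1.56% of all covered genes. PPARg was 174 and 0 bp in the WT libraries, against 301 and 239 bp in the KO libraries, with weak folds of 4.51 to 5.09. CTCF had a single peak of 195 bp, in 1 KO library. At these levels 1 short peak decides each value.

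Tbx3 (chr5:119670534-119684724), a T-box repressor that beta-catenin switches on in pericentral hepatocytes, was the member whose libraries separated by genotype in the most targets. H3K27ac covered 7367, 8855 and 8353 bp in the WT libraries, against 6667, 5592 and 7043 bp in the KO libraries. The KO libraries were all below the WT libraries, by −5.14 percentage points (24.0% ± 2.21 against 18.8% ± 2.20, SD, n = 3 each, SE 1.65, limma adjusted p = 0.762). CTCF covered 1905 and 1802 bp in the WT libraries, against 790 and 835 bp in the KO libraries, a ratio of 0.438 (difference −3.04 percentage points, SE 0.243, limma adjusted p = 0.435). The CTCF difference was −1.11 percentage points with lists of equal length and with the stricter q. PPARg covered 1455 and 289 bp in WT and none in either KO library, although the KO lists covered 2.63 times as much of the genome (adjusted p = 0.232, limma). H3K4me3 measured 6360 bp in WT and 3256 bp in KO, and H3K27me3 ran the other way, from 880 bp to 3424 bp, with 2 peaks in WT and 6 in KO. None of the tested differences at Tbx3 passed the adjusted threshold, and none changed direction under any alternative.

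Of the 3 CTCF sites at Tbx3 that both WT libraries called, the KO libraries called 1. The site at the first bases of the gene span, chr5:119670475-119671009, had folds of 5.28 and 8.81 in WT, and the site beyond the other end of the span, chr5:119686318-119687107, had 7.04 and 4.99. Neither had a peak in KO. The third site, chr5:119690970-119691864, was called in all 4 libraries, with folds of 14.6 and 9.84 in the WT lists and 13.6 and 13.5 in the KO lists. The PPARg site that was called in both WT and in neither KO library, chr5:119670407-119670892 (folds 5.84 and 5.29), overlapped the first of the CTCF sites without a KO peak. With a −log10 q of at least 5 no WT-only site of either factor was left among the 10 genes. A site leaves this class when 1 of the 2 WT libraries misses the threshold. The WT-only sites at Tbx3 and Cyp2f2 ranked above 9.73% to 44.7% of the peaks of their own lists. Only Tbx3, of 21887 genes, had all KO libraries below all WT libraries for H3K27ac (219 genes), CTCF (4967 genes) and PPARg (103 genes) together, and it also had H3K4me3 at least 1.5 times lower and H3K27me3 at least 1.5 times higher (0.00457% of genes). That combination was put together after its values were seen, and it is a description.

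**Figure D5:**
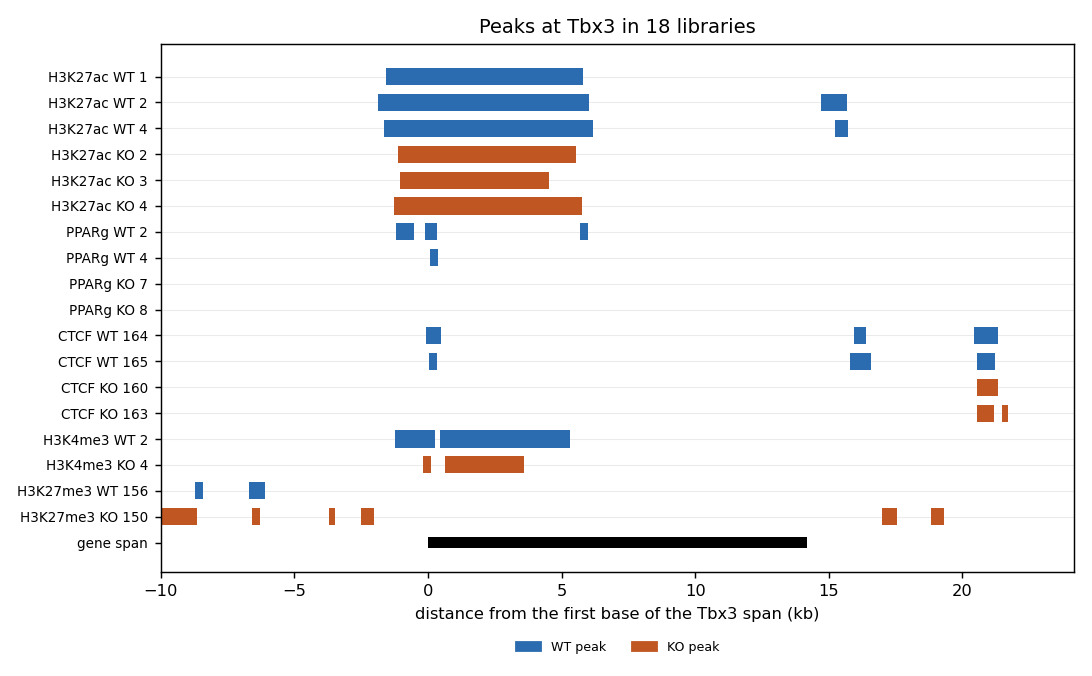
Peaks at Tbx3 in the 18 libraries, by distance in kb from the first base of the gene span (black bar), WT in blue and KO in orange. PPARg rows of KO 7 and KO 8 are empty, the CTCF peaks near 0 and 16 kb appear in WT alone while the one near 21 kb appears in all 4 libraries, and H3K4me3 is shorter and H3K27me3 more frequent in KO.

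Cyp2f2 (chr7:27119955-27133660), the periportal contrast, is a cytochrome P450 of portal hepatocytes, and Wnt signalling holds it down. PPARg covered 780 and 986 bp in the WT libraries, against 3908 and 4102 bp in the KO libraries, widely apart (+9.26 percentage points, SE 0.379, limma adjusted p = 0.0114, a ratio of 4.54). At the pericentral Cyp1a2 and Cyp2e1 the ratios were 4.44 and 3.16, and whether they differ from that of Cyp2f2 was not tested. The PPARg site with the highest fold in the KO lists lay inside the gene at chr7:27128252-27129901, with folds of 5.79 and 5.80 in the WT lists and 20.7 and 16.3 in the KO lists. The site with the highest fold in the WT lists, chr7:27123258-27125029, had 11.7 and 7.65 there and 6.91 and 7.30 in the KO lists. A KO-only PPARg site stood 4367 bp beyond the gene, chr7:27138027-27138802, with folds of 11.5 and 11.7. CTCF covered 1411 and 848 bp in the WT libraries, against 494 and 911 bp in the KO libraries, and the site at chr7:27131403-27131784 was called in WT alone (folds 6.98 and 4.61). H3K27ac covered 13420, 15234 and 15300 bp in the WT libraries, against 16063, 14078 and 16896 bp in the KO libraries. H3K4me3 measured 1038 bp in WT and 362 bp in KO, and none of it lay on the promoter shown above.

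The 10 windows are set here beside the whole genome, and their genes were chosen with earlier results of these data known. Of their 45 PPARg regions 43 overlapped an H3K27ac peak, or 95.6% against 84.9% of all PPARg regions, and of their 16 CTCF regions 8 did, or 50% against 25.2%. H3K27ac was called over the promoter in all 6 libraries at Glul, Cyp1a2, Cyp2e1, Axin2, Rnf43 (its first promoter), Oat and Cyp2f2, as at 43.1% of promoters. A PPARg peak in all 4 libraries was found over the promoters of Cyp1a2 and Cyp2e1 alone. The H3K27ac regions of the windows numbered 40, of which 15 were called in all 6 libraries, against 39.6% of all regions. None was called in all 3 libraries of WT and no KO (0.173% of all regions) or in all 3 of KO and no WT (1.08%). Of the 45 PPARg regions 14 were called in all 4 libraries, against 29.8% of all, and 1 in WT alone, against 1.05%. KO-only PPARg regions numbered 4, or 8.89%, against 17.9% over the genome, and lay at Cyp1a2, Cyp2f2, Lgr5 and Oat. Over the 18 libraries, with each library scaled to its SD over genes, the genes most like Glul were Pxdc1, Czib and Fam111a, at distances of 1.70, 1.73 and 1.73 SD units against a median of 6.04 over all genes. Those most like Cyp2f2 were Septin9, Ergic1 and Lsmem2, at 1.89, 2.11 and 2.16 against 9.40.

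Other genes of the zonation programme and of the Wnt pathway were counted in 7 further lists. For H3K27ac and CTCF none of the 7 lists held a gene past the limma test. For PPARg, 7 of 14 other pericentral genes passed, all higher in KO (Gulo, Lect2, Prodh, Aldh1a1, Ahr and Cyp2a5 among them). Of 15 other periportal genes 10 did (Cps1, Asl, Pck1, G6pc, Sds, Pigr, Hsd17b13, Hsd17b6 and Ctsc among them). These shares stand beside the 34.2% of all genes. The hepatocyte markers passed at 4 of 5 genes, also all higher in KO. Cyp2a5, a coumarin-oxidising P450, rose from 3.14% of its window to 16.0% (limma adjusted p = 0.0168), and Cps1, which feeds ammonia into the urea cycle, rose from 0.693% to 4.34% (limma adjusted p = 0.0133). Among Wnt receptors Fzd7, Lrp5, Lrp6 and Lgr4 passed (4 of 8), in the destruction complex the kinases Gsk3a and Gsk3b (2 of 6), and among TCF/LEF factors Tcf7l1 (1 of 4). None passed of the 1 ligand tested, Wnt9b, or of 3 other feedback genes. For Lrp6, a co-receptor of Wnt, PPARg cover rose from 1.69% to 5.19% of the window (limma adjusted p = 0.0153). H3K4me3 was at least 1.5 times lower in KO at 1 of 10 receptor, 1 of 3 ligand and 1 of 7 destruction complex genes. None of 7 TCF/LEF factors and coactivators or 4 other feedback genes was, beside the 10.5% of all genes. At least 1.5 times higher were 2 ligand genes, 1 TCF/LEF gene and 1 other feedback gene, beside 9.14% of all genes. No receptor or destruction complex gene was that much higher.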

How the data were processed

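Peak lists of 18 ChIP-seq libraries from mouse liver were analysed. The submitters' processing notes list MACS2 2.1.2, BWA 0.7.12, deepTools 3.1.3 and Picard 1.77 and build mm10, and the control for peak calling is not given in the sources used here. Peaks were called per library. Each peak has, from the authors, a fold enrichment, which is a ratio over background, a −log10 p and −log10 q, and a deposited score that was not used. Per the file names, the deposited PPARg lists were not freed of blacklisted regions.

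Only peaks of the autosomes, X and Y were used, with repeated intervals collapsed. The percentage of each gene's window that peaks cover was fitted with limma 3.58.1 in R 4.3.3, separately for H3K27ac, PPARg and CTCF, two-sided, with Benjamini-Hochberg adjustment over all genes with any peak and a threshold of 0.05. The script was tested on simulated data. No scaling between libraries was applied. For H3K4me3 and H3K27me3, with 1 library per genotype, covered lengths were set side by side and called at 1.5 times. Regions were merged over the libraries of a target by an overlap of at least 1 bp and called WT-only or KO-only where all libraries of 1 genotype and none of the other had a peak. Promoters came from RefSeq (GRCm38.p6). Python 3.11.15 and pandas 2.3.3 did the rest.

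Named genes were the 10 members, from each other list the genes past the test, otherwise its first 2 (not all are described, and some are not reported here), and the 3 genes nearest to Glul and to Cyp2f2 by Euclidean distance over 18 libraries. All 112 list entries matched a gene. The members and lists were chosen with earlier results of these data known. The labels do not say whether libraries came from separate animals, so p-values measure the spread between these libraries, which may be technical. Alternatives tried were a window of 5 kb, a stricter −log10 q, division by total cover, lists of equal length, a log2 scale (100 bp added), limma's trend, a replicate block, an overlap of 50% and leaving out each library. Leaving out libraries for the region counts was added after seeing the data.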

Additional observations from a re-analysis of the deposited data

How the results depend on the processing

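Values are KO minus WT in percentage points of the window unless named otherwise, and genes called are those past the limma threshold. On the log2 scale of covered base pairs 23 genes were called higher and 2 lower for H3K27ac, and 1 higher and 295 lower for CTCF. A stricter −log10 q called 1 gene lower for H3K27ac. The PPARg calls (3468 higher, 15 lower) became 1435 and 23 with lists of equal length and 0 and 0 after division by total covered length. With 1 library left out they ranged from 0 to 3577 higher and from 0 to 13 lower, and both counts were 0 without WT 2 and without WT 4. Genes called lower were 52 on the log2 scale, 4 with the stricter q, 38 with limma's trend and 24 with a window of 5 kb. With the replicate block (labels 2 and 4 of H3K27ac) no gene was called either way, and 0 was also the count without it. Deviations of same-numbered libraries correlated at −0.235 and −0.201, and those of other pairs at −0.078 to 0.251. With 3 libraries per genotype, these values cannot tell whether same-numbered libraries belong together. The causes of these shifts were not tested.

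Several small differences changed sign. For H3K27ac, the stricter q gave 0.50 at Glul and −0.17 at Axin2, equal lists gave −0.17 at Axin2, the log2 scale 0.050 (log2) at Slc1a2, and division by total cover −3.17 at Cyp2e1, −0.91 at Axin2 and −2.68 at Cyp2f2. With 1 library left out the H3K27ac difference ranged from −4.36 to 2.62 at Glul, −0.72 to 2.56 at Axin2, −1.35 to 1.39 at Rnf43 and −2.53 to 0.80 at Slc1a2. For PPARg, division by total cover gave −2.88 at Glul, −0.99 at Axin2, −0.55 at Rnf43 and −0.11 at Slc1a2, equal lists −0.32 at Axin2 and −0.055 at Lgr5, and a window of 5 kb −1.78 at Glul, whose range with 1 library left out was −1.27 to 2.46. For CTCF, division by total cover gave 0.090 at Glul, 0.094 at Axin2 and 0.26 at Rnf43, the log2 scale 0.030 (log2) at Rnf43 and the stricter q −0.11 at Cyp1a2. The ranges with 1 library left out were −1.38 to 0.35 at Glul, −1.03 to 0.40 at Axin2 and −0.26 to 0.24 at Rnf43. H3K27me3 at Oat was −141 bp with equal lists.

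Among regions in the windows, an overlap of 50% left 2 PPARg regions and 4 CTCF regions called in all libraries and raised KO-only PPARg regions to 15. The stricter q left 0 WT-only regions for PPARg and 0 for CTCF. With 1 library left out, H3K27ac regions ranged from 0 to 2 KO-only and 0 to 1 WT-only, PPARg regions from 4 to 13 KO-only and 1 to 7 WT-only (7 without WT 4), and CTCF regions from 0 to 2 KO-only. For H3K27me3, 2 members were lower in KO with equal lists, and 1 was higher with a window of 5 kb, with the stricter q and with equal lists. Peak lists give no read depth, so a missing peak says only that none was listed. With 2 libraries per genotype, 1 library decides whether groups overlap.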
